A study of Mus musculus with 16 samples.

Results

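The 4 Hox clusters of the mouse were followed through 9 chromatin immunoprecipitation sequencing (ChIP-seq) libraries of neural progenitor cells. The clusters were taken as fixed intervals of the mm9 genome: Hoxa on chr6:52100001-52215000 (115 kb), Hoxb on chr11:96050001-96235000 (185 kb), Hoxc on chr15:102748001-102872000 (124 kb) and Hoxd on chr2:74488001-74607000 (119 kb). Each file lists windows of 50 bp that passed a minimum set by the authors, with a signal value on the authors' scale. The 543 kb of the clusters held 274 of the 1459926 listed windows (0.0188%), of which 189 came from Cbx3 set 1. Windows up to 200 bp apart were merged within a library, which gave 124 regions of 605681 in all. The intervals stand for 38 member genes, 10 in Hoxa, 10 in Hoxb, 9 in Hoxc and 9 in Hoxd. The gene table at hand is of another build (GRCm38), so windows were placed by their distance from the cluster ends and not within single genes.

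The cells were derived from V6.5, a mouse embryonic stem cell line, by way of embryoid bodies kept for 4 days, and were fixed with 1% formaldehyde. Untreated cells gave 2 libraries of Cbx3 (sets 1 and 2) and 1 of RNA polymerase II (Pol II). Cells given an siRNA against luciferase (control siRNA) or against Cbx3 (Cbx3 siRNA) for 72 hours gave 1 library each of Med26, Cdk8 and Pol II. Whether the Cbx3 siRNA lowered Cbx3 was not analysed here, nor were the marker genes of neural progenitors, which need gene positions in mm9.

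Hox genes encode homeodomain transcription factors that give cells their position along the head-to-tail axis. Their order on the chromosome follows the order of their domains in the body: genes at the anterior end of a cluster act in the hindbrain, and those at the posterior end act in the caudal spinal cord, limbs and urogenital tract. In embryonic stem cells the clusters are held silent under Polycomb chromatin, and posteriorizing signals such as retinoic acid open them from the anterior end. Cbx3, the heterochromatin protein HP1 gamma, binds histone H3 methylated at lysine K9 and is also found on transcribed genes. Med26 and Cdk8 belong to Mediator, the coactivator that links transcription factors to Pol II. Med26 sits in the form that binds Pol II, and Cdk8 is the kinase of the detachable module.

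The gene order of the table gave the direction of each cluster. The anterior end had the low coordinates in Hoxa, which runs from Hoxa2 (a hindbrain and neural crest gene) to Hoxa13 (a gene of the digits and urogenital tract). It had the high coordinates in Hoxb, Hoxc and Hoxd, where the anterior members are Hoxb1, Hoxc4 and Hoxd1 and the posterior ones Hoxb13, Hoxc13 and Hoxd13. To show what the anterior ends look like in sequence, the 250 bases before the start of the most anterior member gene of each cluster are printed from RefSeq (GRCm38.p6). Capitals mark each CpG dinucleotide. The stretches lie on chr6:52164832-52165081 (minus strand), chr11:96365508-96365757, chr15:103034145-103034394 and chr2:74762730-74762979 (plus strand) of GRCm38.p6, whose coordinates differ from those of the mm9 windows.
Hoxa2: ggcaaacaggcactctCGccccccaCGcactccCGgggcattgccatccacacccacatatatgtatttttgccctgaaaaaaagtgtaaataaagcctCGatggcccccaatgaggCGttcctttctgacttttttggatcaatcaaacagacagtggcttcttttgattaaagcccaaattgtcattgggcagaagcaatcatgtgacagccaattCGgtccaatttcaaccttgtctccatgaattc
Hoxb1: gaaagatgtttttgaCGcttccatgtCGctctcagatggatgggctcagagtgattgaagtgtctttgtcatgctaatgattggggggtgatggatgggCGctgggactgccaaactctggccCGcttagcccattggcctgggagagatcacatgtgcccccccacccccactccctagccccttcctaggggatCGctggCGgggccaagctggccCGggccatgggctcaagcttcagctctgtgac
Hoxc4: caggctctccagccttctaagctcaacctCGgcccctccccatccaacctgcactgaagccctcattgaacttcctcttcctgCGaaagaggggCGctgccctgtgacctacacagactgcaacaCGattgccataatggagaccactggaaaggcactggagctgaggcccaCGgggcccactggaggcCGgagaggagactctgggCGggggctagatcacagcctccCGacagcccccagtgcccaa
Hoxd1: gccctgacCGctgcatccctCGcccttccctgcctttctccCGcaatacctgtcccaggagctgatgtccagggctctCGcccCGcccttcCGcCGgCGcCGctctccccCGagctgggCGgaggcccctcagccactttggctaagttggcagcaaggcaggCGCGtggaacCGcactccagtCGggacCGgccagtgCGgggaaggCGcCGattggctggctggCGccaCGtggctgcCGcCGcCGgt

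The 4 stretches differ in CpG content, with 24 CpG in Hoxd1, a gene of sensory neurons, against 8 in Hoxc4, 7 in Hoxb1 and 6 in Hoxa2. The table held 24 promoters of 22 member genes: 9 genes in Hoxa, 3 in Hoxb, 1 in Hoxc and 9 in Hoxd. Their median was 12.5 CpG per 250 bases, from 2 to 35, against 6 over all 32851 promoters of the table, and the median ratio of observed to expected CpG was 0.721 against 0.374. The posterior genes Hoxa13 and Hoxd13 had the most, with 35 and 31, but not all posterior genes were high. Hoxd11 had the fewest, 2, in 1 promoter and 20 in another, and Hoxd12 had 10. Hoxb13 and Hoxc13 had no promoter in the table. The letters TATAAA, searched on both strands, were in 4 of the 24 (16.7%) and in 12.4% of all promoters. The letters TGATNNAT, the core of the site bound by Hox proteins with their Pbx partners, were in 4 (16.7%, among them Hoxa2 and Hoxb1) and in 7.68% of all promoters. These are descriptions of sequence, and no listed window was assigned to a promoter.

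Pol II was listed at a single locus of the clusters in untreated cells, near the anterior end of Hoxa. The other 3 clusters held no untreated Pol II window. In tiles of 5 kb, 1 of the 111 tiles of the clusters held untreated Pol II (0.901%), against 1.41% of tiles in the genome. Under control siRNA 6 tiles did (5.41%), against 2.71% in the genome, and under Cbx3 siRNA 7 (6.31%), against 2.8%. The listed share of base pairs was near that of the genome in all 3 libraries: 0.0552% against 0.066% untreated, 0.203% against 0.22% under control siRNA and 0.193% against 0.191% under Cbx3 siRNA. The flanks of equal length on both sides of the clusters were richer, with 0.166%, 0.506% and 0.437%, and all of these windows flanked Hoxb, Hoxc or Hoxd, since the flanks of Hoxa held no Pol II window in any library.

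Pol II in the clusters was also weak. Under control siRNA, 1 of the 22 windows lay above the median signal of that library, 16.6, and under Cbx3 siRNA 0 of 21 lay above its median of 14.7. In the flanks 64 of 110 and 50 of 95 did. The untreated library differed, as 5 of its 6 windows lay above its median of 16.6. Its lowest listed signal was 9.02, against 6.01 in the siRNA libraries, on a scale that the untreated and siRNA libraries do not share.

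**Figure D1:**
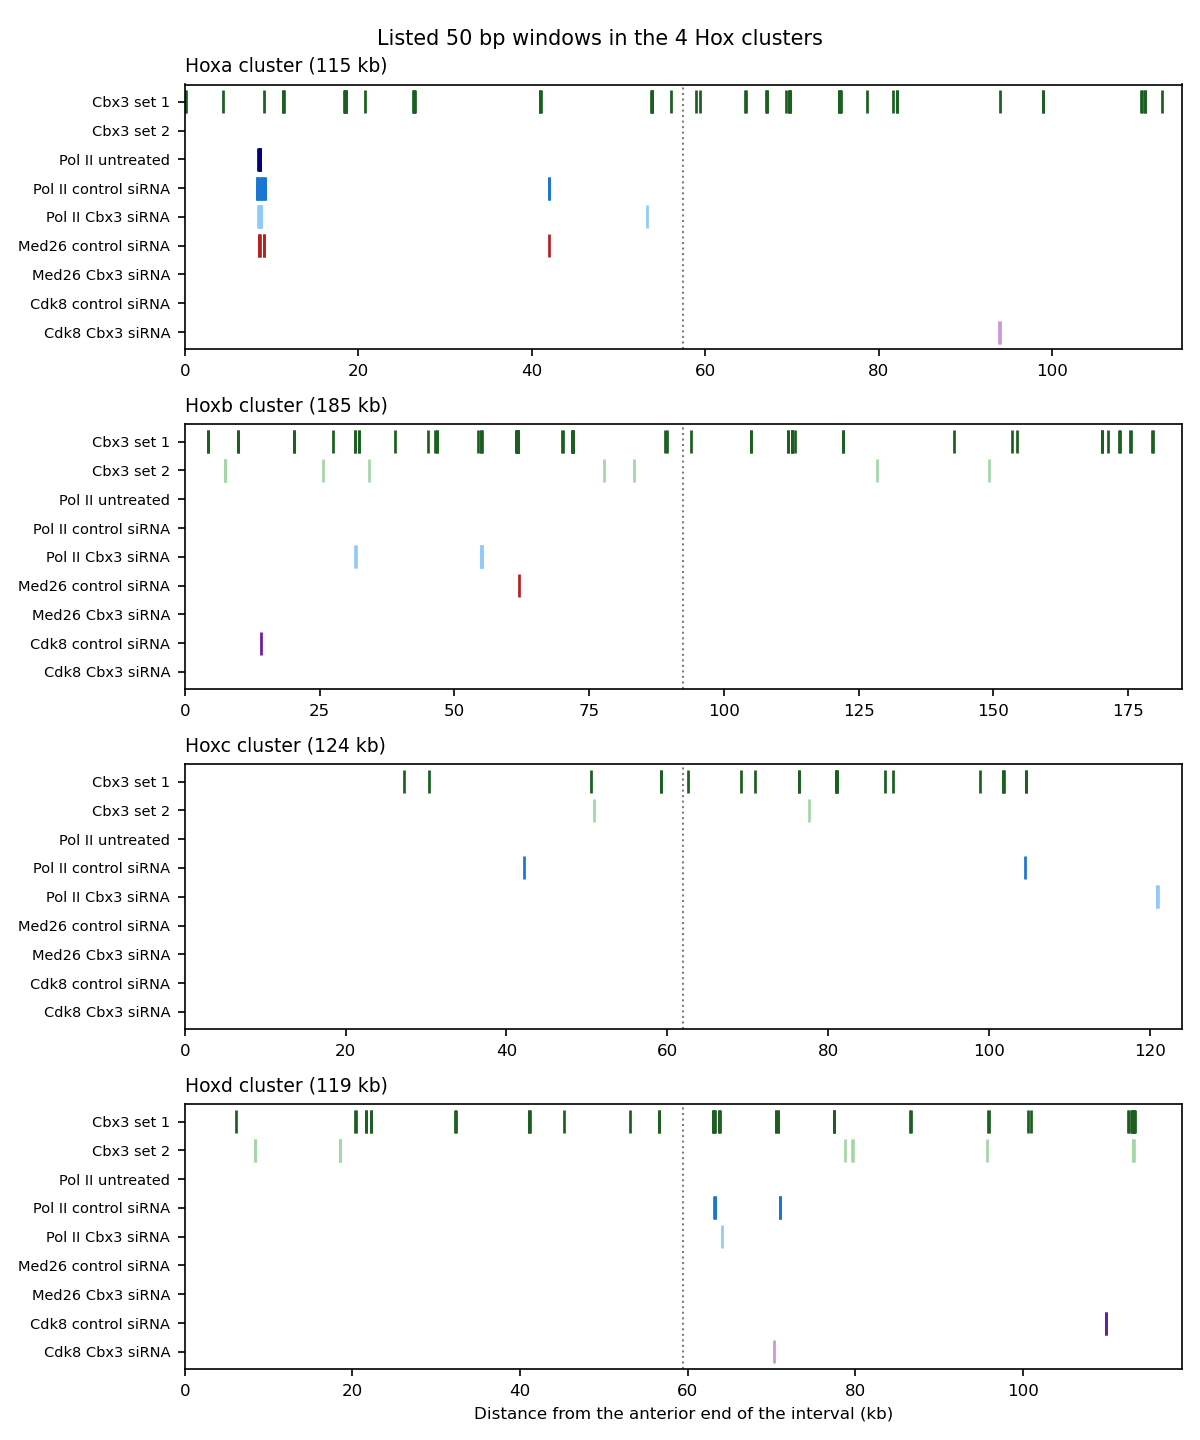
Listed 50 bp windows (vertical ticks) of each of the 9 libraries (rows) along the 4 clusters, by distance in kb from the anterior end; the dotted line is the midpoint. Cbx3 set 1 is spread over all 4 clusters, while Pol II, Med26 and Cdk8 are listed at 14 places, of which 4 are listed by 2 or more libraries.

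The Hoxa locus lay on chr6:52108301-52109300, 8.8 kb from the anterior end, and was the only stretch of the clusters listed by all 3 Pol II libraries. Untreated Pol II covered 52108451 to 52108750 with 6 windows of signal 17.2, 17.4, 20.1, 20.1, 18.0 and 16.2. Its peak was higher than 64.8% of the 8183 regions of that library, so it was a site of middling strength. Under control siRNA 12 windows were listed between 52108301 and 52109300, in 3 blocks whose highest signals were 16.6, 14.8 and 13.7. Under Cbx3 siRNA 8 windows ran without a break from 52108451 to 52108850, with signals of 7.92 to 12.8. Each arm thus listed windows that the other did not. The 4 windows from 52108551 to 52108750 were listed in untreated cells and after Cbx3 siRNA but not under control siRNA, although the windows on either side there had 13.3 and 14.6. Both neighbours were above the lowest listed signal of 6.01 and below the library median of 16.6. A window can therefore be missing between listed neighbours, by a criterion that the sources used here do not give.

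Med26 was listed at the same locus under control siRNA, in 3 windows from 52108501 to 52108650 (signals 9.72, 11.8 and 10.3) and in 2 from 52109101 to 52109200 (6.35 and 7.68). The first of these regions was higher than 71.2% of the 5990 Med26 regions under control siRNA and lay inside the untreated Pol II region. Med26 was absent from the list after Cbx3 siRNA. Cdk8 was listed there in neither arm. Cbx3 set 1 listed 1 window, from 52109101 to 52109150 with signal 43.4, which fell in the Med26 region farther from the anterior end, and Cbx3 set 2 listed none.

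**Figure D2:**
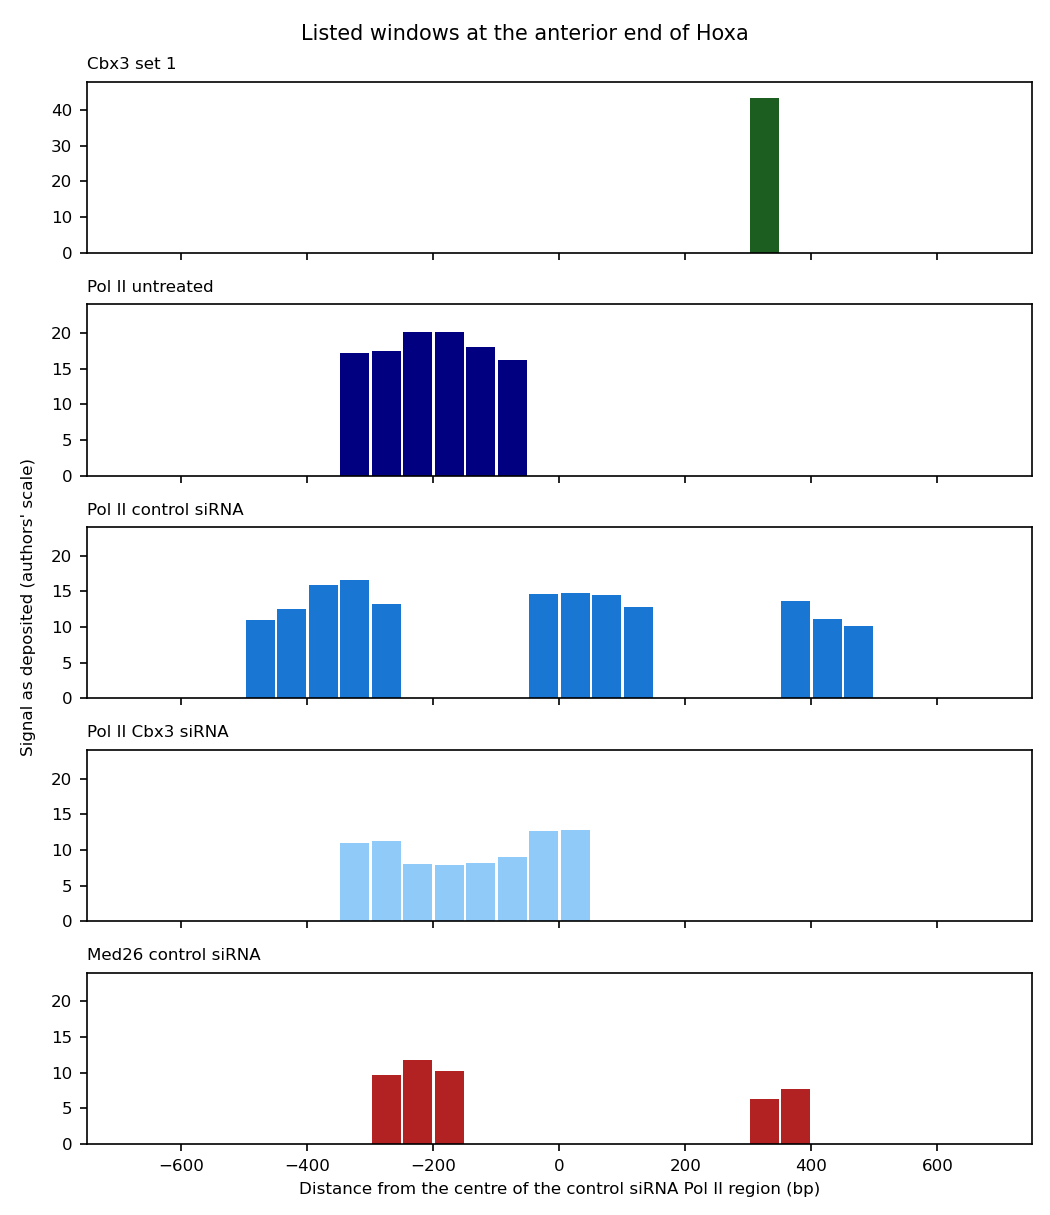
Signal of each listed 50 bp window (bars, authors' scale) by distance in bp from the centre of the Hoxa control siRNA Pol II region. Each antibody has its own scale, and the untreated Pol II library does not share that of the siRNA Pol II libraries. The 4 libraries with no listed window there are left out. The untreated and Cbx3 siRNA Pol II bars are unbroken, while the control siRNA bars form 3 blocks.

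The other Pol II places were short and mostly listed once. In Hoxa, control siRNA Pol II had 2 windows at chr6:52141951-52142050 (signal 11.6), joined by 1 Med26 window at 52142001 to 52142050 (6.89), and Cbx3 siRNA Pol II had 1 window at 52153301 to 52153350 (7.19). In Hoxc, control siRNA Pol II had single windows at chr15:102767551-102767600 (7.7) and chr15:102829801-102829850 (6.8), and Cbx3 siRNA Pol II had 3 windows at chr15:102751001-102751150 (8.89). In Hoxd, control siRNA Pol II had 3 windows at chr2:74535901-74536050 (13.4) and 3 at chr2:74543701-74543850 (8.98), and Cbx3 siRNA Pol II had 1 at chr2:74542901-74542950 (9.57). All of these lay in the lower part of their lists: the highest, that of 13.4, exceeded 36.7% of the 16073 control regions.

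Hoxb was the cluster with Pol II after Cbx3 siRNA alone. It held no Pol II window in untreated cells or under control siRNA, and 8 after Cbx3 siRNA: 6 at chr11:96179851-96180150 (signal 10.4) and 2 at chr11:96203301-96203400 (8.49). Both lay on the anterior side, 55.0 and 31.6 kb from that end. The stronger exceeded 28.8% of the 16426 regions of its library. Among all stretches of 185 kb along the genome, 26.8% held 8 or more Cbx3 siRNA Pol II windows and 60.5% held no control siRNA Pol II window. These are separate shares. How many stretches met both conditions, as Hoxb did, was not counted and cannot be read from them. With 1 library per arm and signals near the lowest listed 6.01, no test is possible, and an unlisted window may lie just under the minimum.

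**Figure D3:**
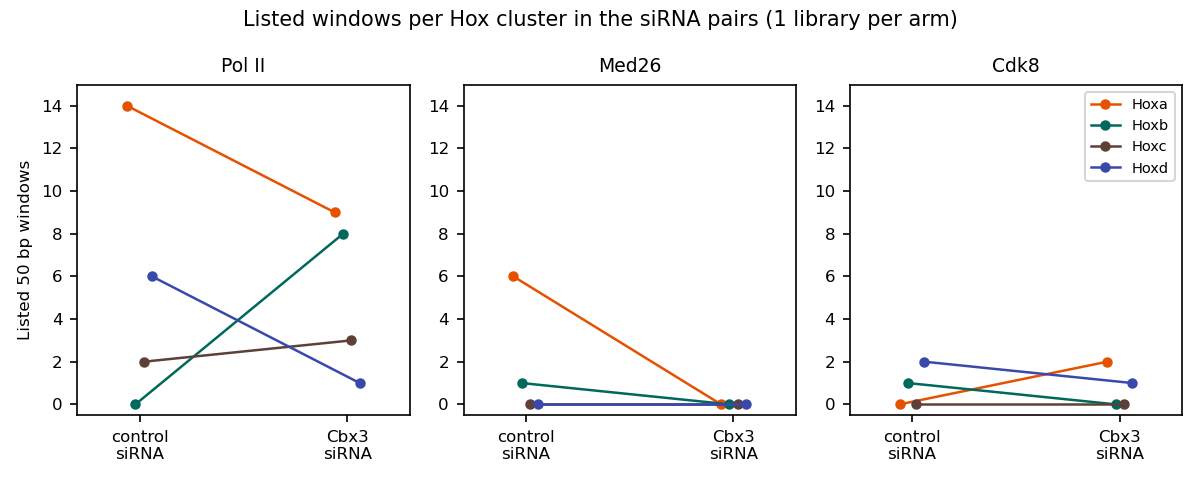
Number of listed 50 bp windows in each cluster (coloured lines) under control siRNA and Cbx3 siRNA, for Pol II, Med26 and Cdk8, with 1 library per arm and small sideways shifts to separate the points. Pol II went from 14 to 9 windows in Hoxa, 0 to 8 in Hoxb, 2 to 3 in Hoxc and 6 to 1 in Hoxd, and Med26 from 6 to 0 in Hoxa.

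Over the clusters, few regions were listed in both arms of a pair. For Pol II, 1 of 6 control regions was listed again after Cbx3 siRNA, the Hoxa locus, against 67.9% of control regions in the genome. Of the 6 Cbx3 siRNA regions 1 was listed under control, against 68.1%. Among control regions of the genome with a signal no higher than 16.6, the highest in the clusters, 33.7% were listed again. The 95% Wilson interval of 1 in 6 runs from 3.01 to 56.4%, which includes that 33.7%. In the genome 81.1% of control regions of any signal had a Cbx3 siRNA region within 1 kb. That share was not computed at limited signal. In the clusters 2 of the 6 control regions had 1 within 1 kb, the Hoxa locus and the Hoxd region at 74543701. These 2 places held 15 of the 22 control siRNA Pol II windows and 9 of the 21 after Cbx3 siRNA.

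Where both Pol II arms listed the same window, the signal was lower after Cbx3 siRNA. This held for 4 windows, all at the Hoxa locus, with 16.6 and 11.0, 13.3 and 11.2, 14.6 and 12.7, and 14.8 and 12.8 under control and Cbx3 siRNA. The log2 differences (Cbx3 siRNA minus control) were -0.59, -0.25, -0.20 and -0.21, with a median of -0.23. The median over all 74288 shared Pol II windows was -0.29, so relative to it the median at Hoxa was 0.06 higher and the direction turns. Of the 4 windows 1 was lower by 1.5-fold or more, against 24.2% in the genome, and 0 were higher by as much, against 2.92%.

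Med26 under control siRNA was listed in 7 windows of the clusters, 6 in Hoxa and 1 in Hoxb at chr11:96172901-96172950 (signal 8.66). It was listed in no window after Cbx3 siRNA. In tiles of 5 kb this was 3 of 111 (2.7%) against 1.04% in the genome, and 0 against 0.328% after Cbx3 siRNA. Of stretches of 115 kb in the genome, 3.99% held 6 or more control Med26 windows, as Hoxa did, and 82.5% held none. Hoxa was the highest of the 4 clusters, and most of its 6 windows were at the Hoxa locus. None of the 4 control regions was listed again, against 8.61% of all control Med26 regions and 2.77% of those with a signal no higher than the highest in the clusters. At such shares 0 of 4 shows nothing particular to Hox. Pol II under control siRNA lay at 3 of the 4 Med26 regions, against 74.9% in the genome, and the same 3 had it within 1 kb, against 85.9%. All 4 lay on the anterior sides of Hoxa and Hoxb.

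Cdk8 left no site listed in both arms. Under control siRNA it had 1 window at chr11:96220851-96220900 (signal 6.97) and 2 at chr2:74497001-74497100 (8.94). After Cbx3 siRNA it had 2 windows at chr6:52193901-52194000 (7.93) and 1 at chr2:74536651-74536700 (9.87). These were 2 of 111 tiles in each arm (1.8%), against 1.03 and 1.13% in the genome. None of the 2 control regions was listed after Cbx3 siRNA, against 11.4% in the genome and 1.32% of those with a signal no higher than 8.94, and none of the 2 regions after Cbx3 siRNA was listed under control, against 10.4%. No Cdk8 region of the clusters overlapped Pol II or Med26. In the genome 22.5% of control siRNA and 26.5% of Cbx3 siRNA Cdk8 regions overlapped Pol II of any library. For control siRNA Med26 these shares were 2.76% and 2.97%. With 2 regions per arm, the lack of overlap shows nothing particular to Hox. The region at 74536651 lay 600 bp from the control siRNA Pol II region at 74535901.

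Cbx3 had by far the most windows in the clusters, and its 2 libraries differed. Set 1 listed 189 windows in 88 regions, 1.74% of base pairs (interval 1.51 to 2.0%) against 1.75% in the genome. Set 2 listed 23 windows in 15 regions, 0.212% (0.141 to 0.318%) against 0.463%. Set 1 reached 61 of the 111 tiles of 5 kb (55.0%), against 49.9% in the genome, and set 2 reached 14 (12.6%), against 19.7%. These intervals cover counting error only, as neighbouring windows share reads. The share in the genome lay inside the interval of the clusters in set 1 and above it in set 2. The flanks of equal length had 0.999% in set 1, below that interval, and 0.285% in set 2, inside it. The share of set 1 in the clusters was 1.74 times that of the flanks. The interval of 1.51 to 2.01 takes the flank share as fixed, so the counting error of the 217 flank windows is left out. With windows above the library median alone, the share of set 1 in the clusters went from 0.995 to 1.86 times that of the genome.

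The order of the clusters was not the same in the 2 sets. In set 1 the listed share was 2.43% in Hoxa, 2.02% in Hoxd, 1.7% in Hoxb and 0.887% in Hoxc. The intervals of Hoxa (1.88 to 3.15%), Hoxd (1.52 to 2.66%) and Hoxb (1.33 to 2.17%) overlap, and that of Hoxc (0.587 to 1.34%) lies below those of Hoxa and Hoxd. In set 2 it was 0.504% in Hoxd, 0.243% in Hoxb, 0.0806% in Hoxc and 0 in Hoxa. Hoxa, the highest cluster of set 1, therefore had no window in set 2, while its flanks had 28. Stretches of 115 kb with no set 2 window made up 7.21% of the genome. Those with no set 1 window made up 3.56%, and Hoxa, with 56, was not among them. How many stretches lacked set 2 windows alone was not counted. Hoxc was low in both sets. Its 27.2 kb nearest the anterior end, from 102844751 to 102872000, held no window of any of the 9 libraries, the longest such stretch in the 4 clusters.

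**Figure D4:**
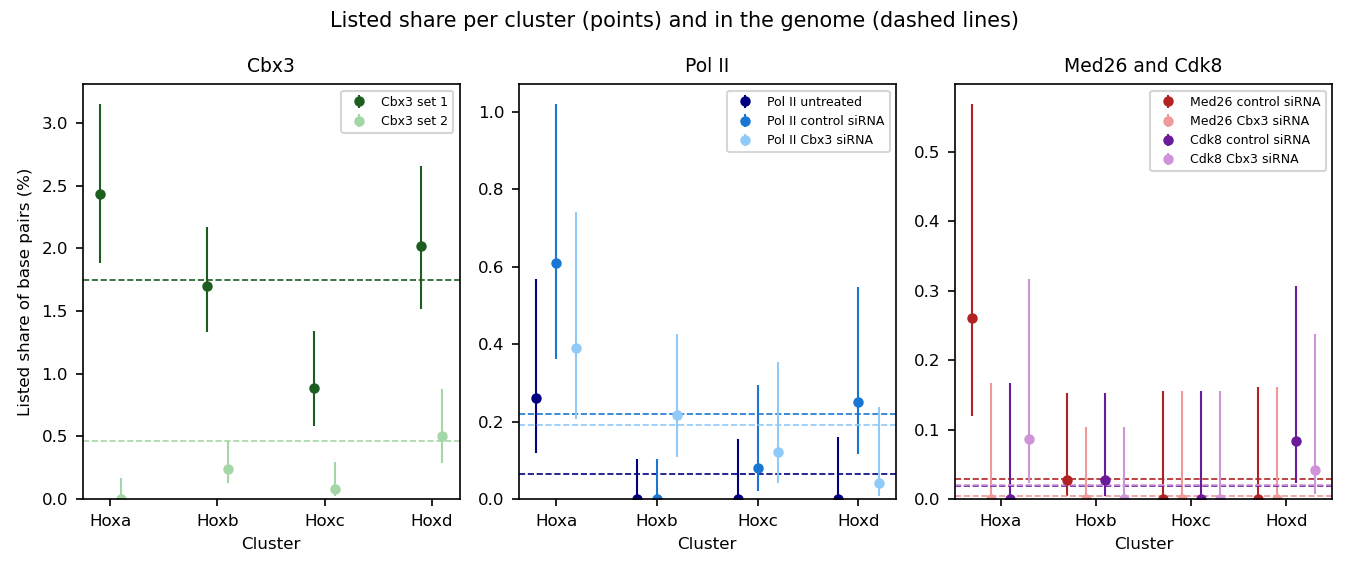
Listed share of base pairs (%) in each cluster for the 2 Cbx3 libraries, the 3 Pol II libraries and the Med26 and Cdk8 libraries; bars are 95% Wilson intervals (counting error only), and dashed lines of the same colour give the share in the genome. Hoxa is the highest cluster for Cbx3 set 1 (2.43%), all 3 Pol II libraries and control siRNA Med26 (0.261%), and has no Cbx3 set 2 window.

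One region was listed in both Cbx3 sets. It lay near the posterior end of the Hoxd interval. In set 1 it was on chr2:74493601-74494050 (9 windows, signal 73.7), and in set 2 on chr2:74493751-74493900 (3 windows, signal 21.7). In GRCm38 the stretches before Hoxd13 and Hoxd1 begin at 74667975 and 74762730, closer together than the 119 kb of the interval. The interval can thus reach past the Hox genes, and whether this region lies outside them in mm9 was not determined. The same holds for the Cdk8 region at 74497001. The signal of the region of both sets exceeded 99.4% of the 419145 regions of set 1 and 92.4% of the 126451 of set 2. It was thus high in both lists, and no Pol II, Med26 or Cdk8 region lay within 1 kb. Few set 1 windows had Pol II that near, 5.27% of the whole list. The Hoxd region was 1 of 88 set 1 regions (1.14%), against 3.29% in the genome. It was 1 of 15 set 2 regions (6.67%, interval 1.19 to 29.8%), against 11.1%. Within 1 kb, 4 of the 88 set 1 regions (4.55%) had a set 2 region, against 17.2%, and 3 of the 15 set 2 regions had a set 1 region, against 47.6%. Most Cbx3 listed in the clusters therefore rests on a single library.

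The set 1 windows of the clusters had high signal. Of the 189 windows, 176 (93.1%) lay above the median of all set 1 windows, 33.8, as did 49.7% of the whole list. The median was 43.4 in Hoxa, 45.3 in Hoxb, 40.4 in Hoxc and 47.0 in Hoxd. In the flanks of equal length 156 of 217 (71.9%) lay above 33.8, with medians of 37.8, 44.0, 41.3 and 34.8. By median, Hoxa, Hoxb and Hoxd exceeded their flanks and Hoxc did not. By the share of windows above 33.8, all 4 did: 87.5% against 68.5% in Hoxa, 95.2% against 80.3% in Hoxb, 90.9% against 79.4% in Hoxc and 97.9% against 52.9% in Hoxd. In set 2, 11 of the 23 windows lay above the median of 13.6, so the second library did not show this. Set 1 windows within 1 kb of Pol II had higher signal in the whole list (median 50.3 against 33.1 elsewhere). In the clusters 29 of the 189 windows were that near (15.3%, against 5.27% of the whole list), with a median of 47.9 against 43.4 elsewhere. The windows of the clusters away from listed Pol II thus also had a median above 33.1, and the part of Pol II in the signal was not tested.

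**Figure D5:**
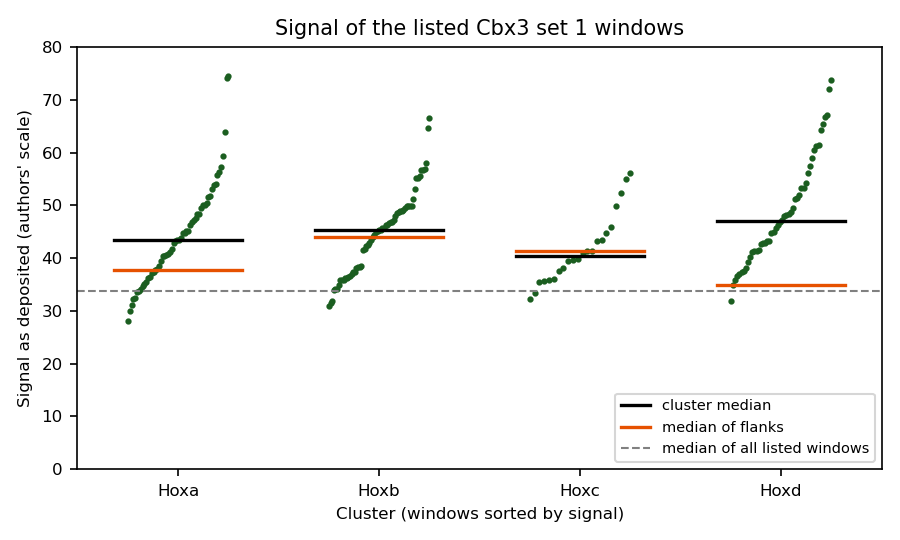
Signal (authors' scale) of every listed Cbx3 set 1 window, sorted within each cluster, with the cluster median (black), the median of flanks of equal length (orange) and the median of the whole library (dashed, 33.8). Nearly all points lie above the dashed line, and the cluster median exceeds that of the flanks in all clusters but Hoxc.

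The strongest set 1 regions stood at different parts of the clusters. In Hoxa the highest was at chr6:52167051-52167200 (signal 74.5) and the longest at chr6:52118351-52118650 (300 bp, 53.0). In Hoxb the longest was at chr11:96173101-96173550 (450 bp, 64.6), 150 bp from the control siRNA Med26 window, and the highest at chr11:96123001-96123100 (66.5). In Hoxc the longest was at chr15:102790851-102791050 (200 bp, 55.0) and the highest at chr15:102801051-102801100 (56.2). In Hoxd the region of both sets was the longest and the highest. In set 2 the highest region outside Hoxd was at chr11:96157151-96157200 (20.9), the longest of Hoxb was at chr11:96227451-96227600 (150 bp, 17.0), and those of Hoxc were single windows at chr15:102794401-102794450 (12.2) and chr15:102821051-102821100 (12.7). Another Hoxd region, at chr2:74588401-74588550 (12.5), had the same listed length in set 2 as the region of both sets.

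Anterior and posterior sides, split at the midpoint, differed by factor. The sides are lengths of the intervals and not sets of genes. Which member genes each side holds in mm9 was not determined, and these need not be of like number in the 4 clusters. Of the set 1 Cbx3 windows 86 were anterior and 103 posterior (45.5% anterior), with 27 and 29 in Hoxa, 38 and 25 in Hoxb, 5 and 17 in Hoxc, and 16 and 32 in Hoxd. Over all 4 clusters this depends on the division: with each cluster cut in 3 equal parts, 54 windows were in the anterior and 50 in the posterior part (51.9% anterior), and 85 lay between. Set 2 had 13 and 10. In Hoxb more windows were anterior in both sets (7 and 2 in set 2), and in Hoxd more were posterior in both (5 and 7 in set 2). The Hoxd counts include the region listed in both sets, without which they were 16 and 23 in set 1 and 5 and 4 in set 2, so the direction in set 2 turns. Pol II was anterior in 6 of 6 windows untreated, 15 of 22 under control siRNA (68.2%) and 17 of 21 under Cbx3 siRNA (81.0%). These counts rest on few loci: without the Hoxa locus, the 10 remaining control windows were 3 anterior and 7 posterior. After Cbx3 siRNA 8 of the 17 anterior windows were at the Hoxa locus and another 8 were in Hoxb, against 4 posterior windows. In that arm the anterior side held more windows without the Hoxa locus too. Pol II was on the anterior side alone in Hoxa and Hoxb and on the posterior side alone in Hoxd, in each library that listed it there. The Hoxd regions lay 63.2, 64.1 and 71.0 kb from the anterior end, near the midpoint at 59.5 kb, and none was in the posterior of 3 equal parts. Med26 was anterior in 7 of 7 windows, among them the regions of 3 and 2 windows at the Hoxa locus. Cdk8 was anterior in 1 of 3 under control and 0 of 3 under Cbx3 siRNA.

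Most Pol II regions of the clusters had Cbx3 set 1 within 1 kb, as did most Pol II regions in the genome. With 6 regions in each siRNA arm, the counts cannot be set apart from the genome shares. Cbx3 set 1 overlapped 2 of the 6 control siRNA Pol II regions, against 39.7% in the genome, and lay within 1 kb of 5, against 68.5%. It overlapped 1 of the 6 Cbx3 siRNA Pol II regions, against 35.2%, and lay within 1 kb of 5, against 66.0%. No Pol II region overlapped Cbx3 of both sets, against 5.53% of control siRNA regions in the genome. Both Hoxb regions with Pol II after Cbx3 siRNA alone had set 1 Cbx3: the region at 96179851 overlapped a set 1 region of 150 bp at 96179901 to 96180050, and that at 96203301 adjoined one at 96203401 to 96203500. Windows of Pol II, Med26 and Cdk8 up to 1 kb apart formed 14 places in the clusters, 8 anterior and 6 posterior. Of these 4 were listed by 2 or more of the 7 libraries (28.6%), against 44.6% of 25932 places in the genome, and 1 by 4 or more (7.14%), against 19.2%. Cbx3 set 1 lay within 1 kb of 10 places (71.4%), against 52.3%, and set 2 of 0, against 22.0%. With 14 places these shares are loose, and no part of the clusters but the Hoxa locus was listed for Pol II in all 3 libraries.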

How the data were processed

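Each of the 9 deposited files holds, for windows of 50 bp, a signal in a unit of the authors. Bowtie and the mm9 build are named, per the submitters' processing notes. How windows were tested, the minimum they had to pass and the aligner's version are not stated in what was used here. The 7 input libraries were not analysed here. The deposited signal is a whole multiple (within 0.05) of a step of 0.0192 in both Med26, 0.0282 in both Cdk8 and 0.022 in both siRNA Pol II libraries. Signals were compared as deposited within these pairs, whose depth is unknown, and not across other libraries. The lists held 923942 and 244855 windows for Cbx3 sets 1 and 2, and 2721 to 116001 for the others.

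Windows up to 200 bp apart were merged, and the highest window gave a region its signal. An overlap needed 1 shared bp. Genome shares used the span from base 1 to the last listed window of each chromosome. No p-value is given, since only Cbx3 has 2 libraries; whether these came from separate cultures is not stated. Every Pol II, Med26 and Cdk8 region was named, and for Cbx3 the region of both sets and the longest and highest of each cluster, with 1 further set 2 region of Hoxd added for a tie in length. Lists of Hox cofactors and of cell type markers were not analysed here, as they need gene positions in mm9. The members and lists were chosen with earlier results of these data known. The places merged over 1 kb, the shares at limited signal and the counts without a region were added after seeing the data. Merging and overlap were tested on simulated data. The scripts ran in Python 3.11.15 (pandas 2.3.3, scipy 1.17.1, numpy 2.4.6), with plots by matplotlib 3.10.9.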

Additional observations from a re-analysis of the deposited data

How the results depend on the processing

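The alternatives covered signal limits, flank width, tile size, the outermost parts in place of the sides, overlap, merging, centring and each Cbx3 set alone. Of 79 values recomputed, 72 fell inside the 95% interval for counting error in the clusters, which is wide at these counts. Counting windows above each library's median alone, the listed share of the clusters over that of the genome went from 0.995 to 1.86 for Cbx3 set 1, from 0.923 to 0.084 for control siRNA Pol II and from 1.01 to 0 for Cbx3 siRNA Pol II. The same limit put the anterior share of windows at 100% for control siRNA Pol II (68.2% with all windows) and at 0% for control siRNA Cdk8 (33.3%), and the outermost parts put that of control siRNA Pol II at 92.3% and that of Cbx3 set 1 at 51.9% (45.5%), which turns its direction. The cause of these changes was not tested, but the limit leaves 1 control siRNA Pol II window. Centred on all shared windows, the median log2 difference of Pol II at Hoxa turned from -0.23 to 0.061, since the median of all shared windows is the lower. With a single Cbx3 set in place of both, the share of control siRNA Pol II regions with Cbx3 was 0 to 33.3%, that of Cbx3 siRNA Pol II 0 to 16.7% and that of control siRNA Med26 0 to 25%. No paired analysis was possible because the siRNA arms hold a single library for each antibody. Few windows per library limit every count here except that of Cbx3 set 1.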
